A study of Homo sapiens with 4 samples.

Results

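The transcripts examined here were 58 interferon-induced effector genes, out of 63677 genes in the count files, in FLO-1LM and FLO-1 parental cells. They were chosen by name, as genes known to be induced by interferon whose products act against viruses, and were grouped by family. The rule uses no measured value, although the list was chosen with earlier results of these data known. FLO-1 is a widely used human line from an esophageal adenocarcinoma (EAC). FLO-1LM is a single subline grown out from a liver metastasis of FLO-1 after repeated passage through NSG mice, which are severely immunodeficient and lack T, B and NK cells. Total RNA from 2 libraries of each line was sequenced, from cells harvested at 80% confluency 24 hr after the medium was changed. The labels name no interferon treatment in either line and do not state whether replicate libraries were made from different cultures. The libraries held 19060310 to 25920336 counts, and the effector genes took 0.680% to 0.810% of them.

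Type I and lambda interferons are cytokines that bind receptors on the cell surface and activate the kinases JAK1 and TYK2. These activate the complex ISGF3, which holds STAT2 and IRF9 and binds the interferon-stimulated response element in the promoters of its target genes. The products of these genes block virus entry, degrade viral RNA, hold back translation, sense foreign RNA or conjugate the ubiquitin-like protein ISG15 to other proteins. Epithelial cells respond to type I interferons and, at mucosal surfaces, to the lambda interferons, and tumor cell lines can transcribe many of these genes without added interferon.

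In FLO-1LM, 8 of the 55 effector genes with enough counts to be tested fell relative to FLO-1 parental cells and none rose. These were *RSAD2*, *CMPK2*, *ISG20*, *OASL*, *OAS2*, *IFIT2*, *IFIT3* and *HERC5*. The 8 genes are 14.5% of those tested, beside 1.83% of all 17143 genes tested that were lower and 0.402% that were higher at the same threshold, an adjusted p below 0.05 in edgeR (2.23% in either direction). At an unadjusted p below 0.05, 17 of the 55 were lower and 3 higher, beside 7.08% and 5.28% of all genes tested. DESeq2 and limma voom each called 8 lower and 0 higher. Of the 8 genes, *HERC5* fell by the least, 19.9%, and *RSAD2* fell by the most, 44.7%. The remaining 47 tested genes did not pass, among them the abundant *IFITM3*, *ISG15*, *IFIT1*, *IFI6* and *ADAR*, and 3 genes (*IFI16*, *IFI44L*, *TRIM22*) had too few counts for a test.

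The response element core was looked up in the promoters, because the element is the sequence that ISGF3 binds at its target genes. RefSeq promoter windows (GRCh38.p14, 250 bases before to 50 bases after each transcription start) were held for 49 of the 58 genes. The core was written as GAAANNGAAA, or TTTCNNTTTC where it lies on the other strand, and overlapping matches were each counted. It was present in a window of 34 of the 49 genes (69.4%), against 3.57% of all 35116 windows in the table and 4.38% of all 27305 gene symbols. The genes were chosen as known to be induced by interferon, so the higher share may follow from that choice. The core was found in 4 of the 5 lowered genes that had a window (80.0%) and in 30 of the 44 others (68.2%). Both groups thus held it in most of their promoters. Of the 49 genes, 15 (30.6%) had at least 2 matches in 1 window. *CMPK2*, 1 of the 8 lowered genes, had no match in any of its 3 windows, which says only that these letters were not in them. *OASL*, *OAS2*, *IFIT2*, *MX2*, *IFITM2*, *DHX58*, *USP18*, *TRIM22* and *GBP2* had no window in the table.

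The stretches around the matches are shown for the 4 lowered genes that had one, 5′ to 3′ on the strand of the gene, with the core in capitals. They were located in GRCh37, the build of the counts, by exact match. *RSAD2* has 1 match at position -145 from the transcription start (chr2:7017738-7017797, plus strand), *IFIT3* has 2 (chr10:91092167-91092269, plus strand), *HERC5* has 3, of which 2 overlap (chr4:89378120-89378230, plus strand), and *ISG20* has 1 at position -69 (chr15:89182153-89182212, plus strand).
RSAD2: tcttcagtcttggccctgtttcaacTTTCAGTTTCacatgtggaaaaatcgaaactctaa
IFIT3: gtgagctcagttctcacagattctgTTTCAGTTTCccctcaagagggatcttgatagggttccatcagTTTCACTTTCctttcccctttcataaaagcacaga
HERC5: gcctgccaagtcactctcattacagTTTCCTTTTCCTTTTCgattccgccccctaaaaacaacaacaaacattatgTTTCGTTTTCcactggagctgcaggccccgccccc
ISG20: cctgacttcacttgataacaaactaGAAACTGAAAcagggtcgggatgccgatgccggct

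For comparison, the same stretches are shown for 4 genes that did not pass the test. They are the abundant relatives of lowered genes in the IFIT, OAS and ISG15 families, and *IFI6*. Only genes with a match could be shown, which 30 of the 44 genes outside the lowered ones had. Others, such as the abundant *ADAR*, *DDX58* and *TRIM25*, had no match in any window. *IFIT1* has 2 matches (chr10:91152239-91152311, plus strand), *OAS3* has 2 (chr12:113376111-113376278, plus strand), *ISG15* has 2 that overlap (chr1:948739-948804, plus strand) and *IFI6* has 3 (chr1:27998762-27998884, minus strand).
IFIT1: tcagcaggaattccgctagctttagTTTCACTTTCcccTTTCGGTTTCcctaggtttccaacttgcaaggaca
OAS3: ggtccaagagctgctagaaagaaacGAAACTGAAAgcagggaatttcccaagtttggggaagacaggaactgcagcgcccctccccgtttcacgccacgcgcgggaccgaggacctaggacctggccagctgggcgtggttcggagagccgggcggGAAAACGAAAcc
ISG15: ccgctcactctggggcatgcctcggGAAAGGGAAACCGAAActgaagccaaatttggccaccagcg
IFI6: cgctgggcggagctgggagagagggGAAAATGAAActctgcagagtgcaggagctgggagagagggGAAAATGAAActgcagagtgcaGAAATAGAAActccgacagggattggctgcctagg

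Levels are given as CPM, which put the counts of all 4 libraries on 1 scale by TMM normalization, and fold changes as log2 of FLO-1LM over FLO-1 parental with their standard error (SE). Across the 55 tested genes the fitted log2 fold change was below 0 in 39 (70.9%, beside 49.6% of all genes tested). Its median was -0.10 and its range -1.32 to 0.53, while the median over all genes tested was 0.0016. Both FLO-1LM libraries lay below both parental libraries in 24 of the 55 (43.6%, beside 21.7% of all genes tested) and above them in 8 (14.5%, beside 20.9%). In the other 23 genes the lines overlapped. The 58 genes summed to 7397 and 6849 CPM in the FLO-1LM libraries and to 7987 and 7846 CPM in the parental libraries, so that the whole set was 7123 ± 387 against 7917 ± 99.8 CPM (mean ± SD, n = 2). In bulk RNA, fewer cells that transcribe a gene and less of its RNA in each cell cannot be told apart.

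Replicates of a line differed too. In FLO-1LM the second library lay below the first in 38 of the 55 tested effector genes (69.1%, beside 50.2% of all genes tested), with a median log2 difference of -0.09. In parental cells the second library lay below the first in 38 of the 55 as well (69.1%, beside 50% of all genes tested), with a median of -0.07. Replicate numbers follow the order of the samples and pair nothing across lines. The difference between lines had a median of -0.10, close to these. All 4 OAS genes, all 4 IFIT genes and all 4 enzymes that act on nucleotides and RNA were lower in the second library of both lines. Among these enzymes, *RSAD2* and *ISG20* differed little within FLO-1LM, at 86.0 against 84.2 CPM and 54.9 against 54.6 CPM. In parental cells *RSAD2* was at 160.0 against 148 CPM and *ISG20* at 81.7 against 79.8 CPM.

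**Figure D1:**
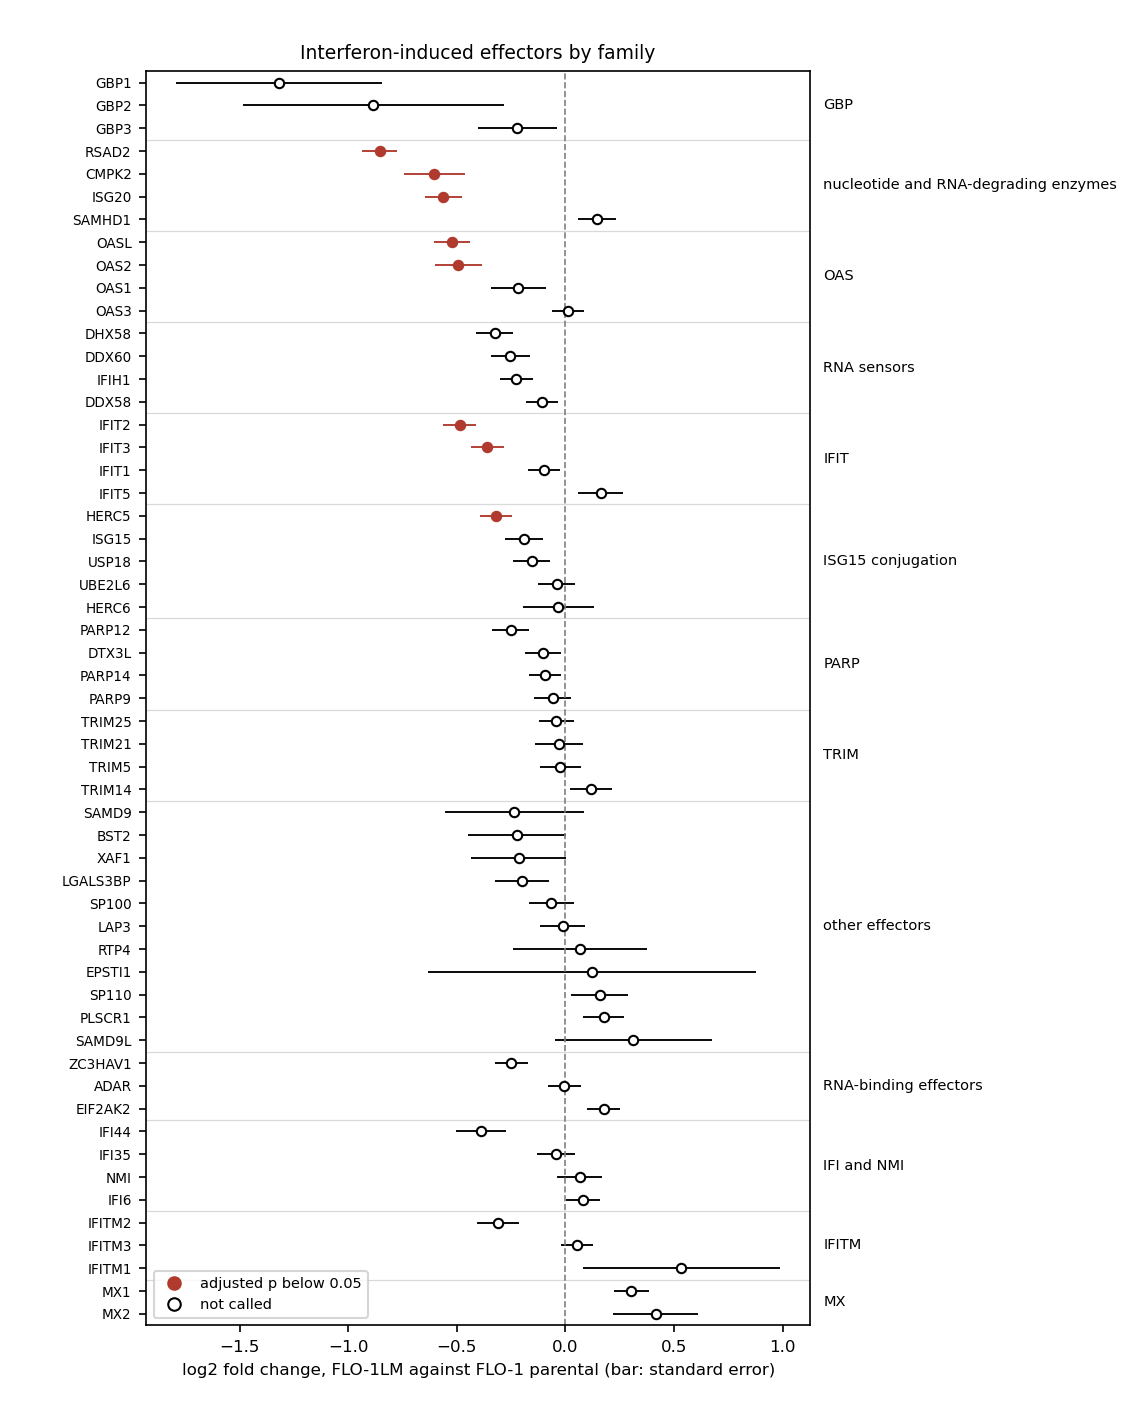
Fitted log2 fold change (FLO-1LM over FLO-1 parental, horizontal axis) of each of the 55 tested effector genes, by family (vertical axis), with bars of 1 SE; filled red points are the 8 genes with an adjusted p below 0.05. All 8 lie left of 0, between -0.85 for *RSAD2* and -0.32 for *HERC5*, and the MX genes lie right of 0 at 0.30 and 0.42 without passing.

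The enzymes that act on nucleotides and RNA held the 3 largest of the 8 falls. *RSAD2* encodes viperin, which converts CTP to a chain-terminating nucleotide. It was at 86.0 and 84.2 CPM in the FLO-1LM libraries and at 160.0 and 148 CPM in the parental libraries. The FLO-1LM libraries were nearly equal and both were far below the parental ones. The log2 fold change was -0.85 (SE 0.080, adjusted p = 4.08e-06). *RSAD2* (ENSG00000134321) lies on chromosome 2 at 7005688 to 7038370, plus strand.

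*CMPK2*, a mitochondrial kinase of UMP and CMP, is the head-to-head neighbor of *RSAD2* (ENSG00000134326, chromosome 2, 6980701 to 7006766, minus strand). It was at 34.4 and 23.7 CPM in FLO-1LM and at 45.9 and 42.1 CPM in parental cells. The FLO-1LM libraries were far apart, yet both were below the parental ones, and the log2 fold change was -0.60 (SE 0.14, adjusted p = 0.0249). In the annotation *RSAD2* and *CMPK2* share 351 exon bases on opposite strands. The library kit keeps strand, but the sources used here do not give the strand setting of the counting, so reads from the shared bases cannot be assigned to either gene.

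*ISG20* encodes an exonuclease that degrades RNA (ENSG00000172183, chromosome 15, 89178901 to 89199714, plus strand). It was at 54.9 and 54.6 CPM in FLO-1LM and at 81.7 and 79.8 CPM in parental cells. Libraries of a line differed by less than 2 CPM, and *ISG20* fell by 0.56 on the log2 scale (SE 0.087, adjusted p = 0.000989). *SAMHD1*, which hydrolyses deoxynucleotides, was the fourth member and lay on the other side. Its level was 86.0 and 79.7 CPM in FLO-1LM against 77.2 and 72.7 CPM in parental cells, with a log2 fold change of 0.14 that did not pass (SE 0.086, adjusted p = 0.548).

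The OAS genes encode sensors of double-stranded RNA that make 2′-5′ oligoadenylate and so switch on RNase L, except for *OASL*, whose product lacks that activity and binds the RNA sensor RIG-I. Of the 4, *OASL* and *OAS2* fell. *OASL* (ENSG00000135114, chromosome 12, 121455566 to 121477049, minus strand) was at 389 and 328 CPM in FLO-1LM and at 530.2 and 499 CPM in parental cells. It had the highest counts of the 8 lowered genes, 8432 to 11688 in a library, and its log2 fold change was -0.52 (SE 0.081, adjusted p = 0.00104). *OAS2* (ENSG00000111335, chromosome 12, 113416200 to 113449528, plus strand) was at 44.7 and 37.4 CPM in FLO-1LM and at 61.6 and 53.7 CPM in parental cells. The gap between the lines was wider than that within either, and the log2 fold change was -0.49 (SE 0.11, adjusted p = 0.0186).

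The other OAS genes did not pass. *OAS3*, the largest enzyme of the family, had 233 and 217 CPM in FLO-1LM and 228 and 218 CPM in parental cells, and these values overlapped. The fitted log2 fold change of *OAS3* was 0.01 (SE 0.075, adjusted p = 0.973). *OAS1* had 21.8 and 20.7 CPM against 24.95 and 24.5 CPM, with a log2 fold change of -0.22 (adjusted p = 0.535).

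The IFIT proteins bind the 5′ ends of foreign RNA and hold back its translation. *IFIT2* and *IFIT3* fell, and *IFIT1* and *IFIT5* did not pass. *IFIT2* (ENSG00000119922, chromosome 10, 91043451 to 91069028, plus strand) was at 317 and 279 CPM in FLO-1LM and at 427 and 409 CPM in parental cells. The lines were well apart, with a log2 fold change of -0.49 (SE 0.076, adjusted p = 0.0011). *IFIT3*, which stabilizes *IFIT1* protein (ENSG00000119917, chromosome 10, 91087064 to 91137230, plus strand), was at 278 and 253 CPM in FLO-1LM and at 352 and 329.6 CPM in parental cells. Its change was smaller, at -0.36 (SE 0.076, adjusted p = 0.0135).

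*IFIT1* is the family member that recognizes caps without 2′-O-methylation and had the highest CPM of the IFIT genes. It was at 599 and 530.2 CPM in FLO-1LM and at 622 and 586 CPM in parental cells, so that the lines overlapped. Its log2 fold change was -0.10 (SE 0.075, adjusted p = 0.674). *IFIT5* had 70.3 and 56.8 CPM against 57.6 and 55.9 CPM, also overlapping, with a log2 fold change of 0.16 (adjusted p = 0.587). Without FLO-1LM replicate 2, *IFIT5* was called higher in FLO-1LM (log2 fold change 0.31, adjusted p = 0.0458). *IFIT2* and *IFIT3* share 65 and 94 exon bases with *LIPA* on the opposite strand, a gene with 37874 counts over the 4 libraries beside 31497 for *IFIT2* and 26769 for *IFIT3*, and reads from those bases cannot be told apart.

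The ISG15 conjugation genes encode a ubiquitin-like protein and the enzymes that attach it and take it off. *HERC5*, the main ligase for ISG15 in human cells, was the only gene of the 5 to pass (ENSG00000138646, chromosome 4, 89378270 to 89427314, plus strand). It was at 235 and 224 CPM in FLO-1LM and at 295 and 279 CPM in parental cells. The 4 libraries did not overlap between lines, and *HERC5* fell by 0.32 on the log2 scale (SE 0.073, adjusted p = 0.0242), the smallest of the 8 falls.

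*ISG15* itself was at 807 and 639.8 CPM in FLO-1LM and at 796 and 855 CPM in parental cells. The first FLO-1LM library lay between the parental ones and the second far below them, and the log2 fold change of -0.19 did not pass (SE 0.088, adjusted p = 0.387). Without the first FLO-1LM library it was called lower (log2 fold change -0.37, adjusted p = 0.000308). The E2 enzyme *UBE2L6*, the protease *USP18* that removes ISG15, and *HERC6* had log2 fold changes of -0.04, -0.16 and -0.03 with adjusted p of 0.912, 0.508 and 0.969.

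**Figure D2:**
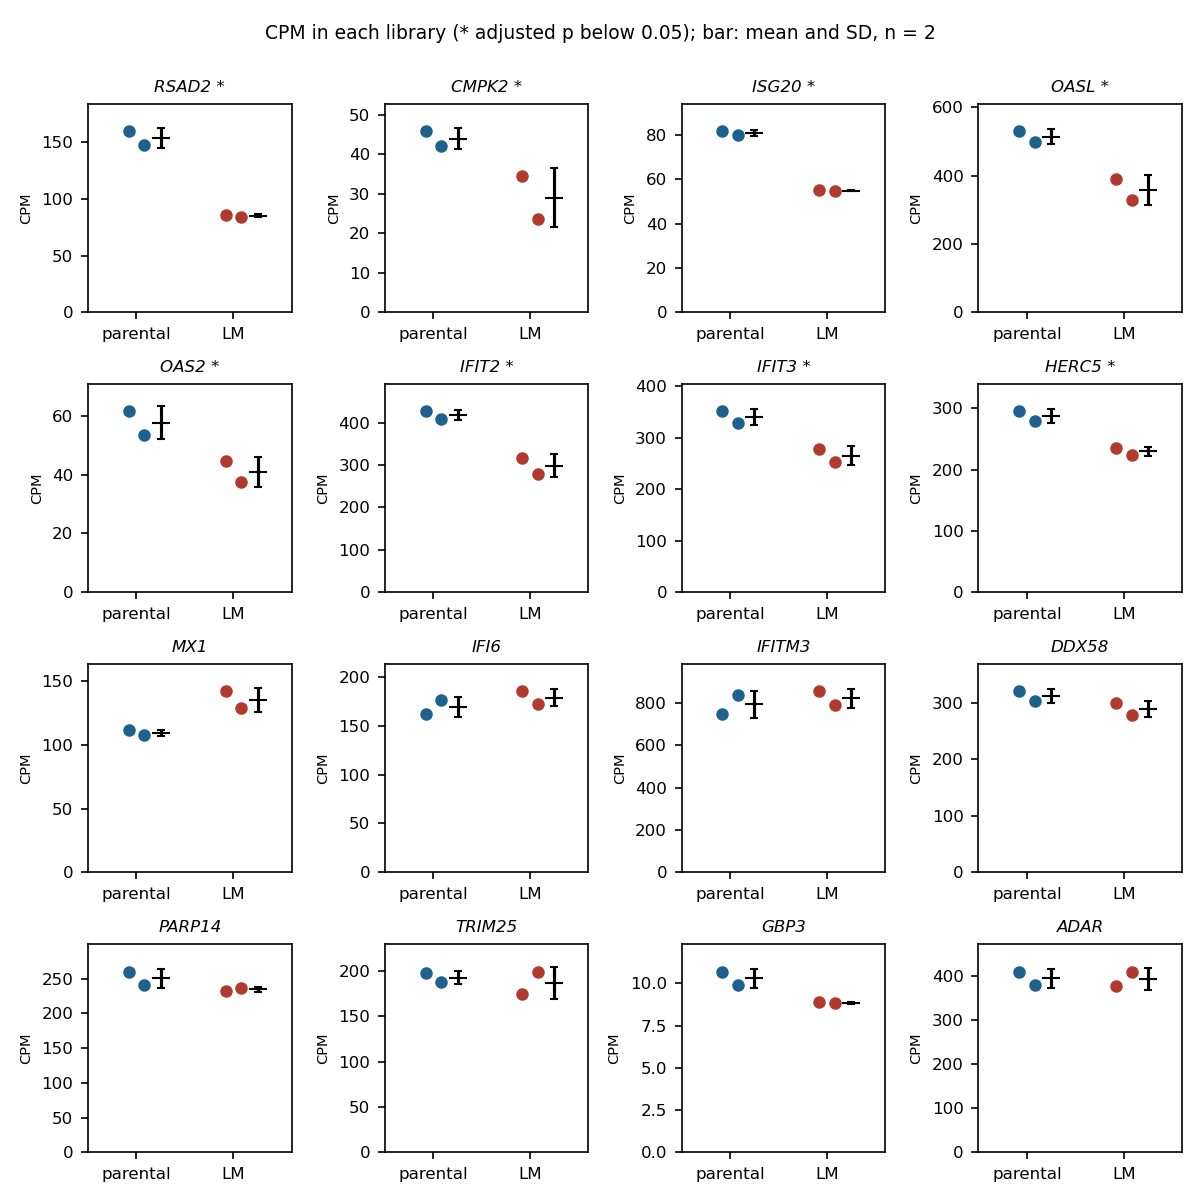
CPM in each of the 4 libraries (vertical axes, each starting at 0) for the 8 lowered effector genes and for 8 that did not pass, with each point a library and each bar the mean and SD of 2 (LM, FLO-1LM). In the lowered genes both FLO-1LM points lie below both parental points, as for *RSAD2* at 86.0 and 84.2 against 160.0 and 148 CPM, while *IFITM3*, *TRIM25* and *ADAR* overlap between lines.

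The RNA helicases of the RIG-I group take part in the detection of viral RNA in the cytoplasm. None of the 4 passed, and all 4 had both FLO-1LM libraries below both parental libraries, as did 21.7% of all genes tested. *DDX58*, which encodes RIG-I, was at 299.9 and 279 CPM in FLO-1LM and at 321 and 303 CPM in parental cells, with a log2 fold change of -0.11 (SE 0.073, adjusted p = 0.628). *DHX58*, which encodes the regulatory helicase LGP2, was at 66.0 and 64.6 CPM in FLO-1LM and at 81.0 and 82.6 CPM in parental cells. Its log2 fold change of -0.32 missed the threshold narrowly (SE 0.085, adjusted p = 0.0534), and it was called lower in 5 of the 10 alternative fits. *IFIH1*, which encodes MDA5, and *DDX60* had log2 fold changes of -0.23 and -0.25 with adjusted p of 0.188 and 0.198.

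The MX genes encode dynamin-like GTPases that trap viral nucleocapsids, and they lay on the opposite side to the lowered genes. *MX1* (chromosome 21) was at 142 and 129 CPM in FLO-1LM and at 111 and 108 CPM in parental cells. The lines did not overlap, and the log2 fold change of 0.30 missed the threshold (SE 0.081, adjusted p = 0.0585). *MX1* passed, as higher in FLO-1LM, in 1 of the 6 alternative settings that kept all libraries, edgeR with no filter on low counts (adjusted p = 0.0197). Over the 4 fits that left out 1 library, its log2 fold change ranged from 0.23 to 0.37. *MX2* had 9.11 and 11.6 CPM against 7.71 and 7.82 CPM, with a log2 fold change of 0.42 that did not pass (SE 0.20, adjusted p = 0.398).

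The RNA-binding effectors differed among themselves without passing. *ADAR*, which edits adenosine to inosine in double-stranded RNA, was at 376 and 410.3 CPM in FLO-1LM and at 409.6 and 379 CPM in parental cells. The lines covered the same range, and the log2 fold change was -0.0041 (SE 0.074, adjusted p = 0.993). *EIF2AK2*, the kinase PKR that stops translation, had a log2 fold change of 0.18 (adjusted p = 0.345), and *ZC3HAV1*, which targets CpG-rich RNA, one of -0.25 (adjusted p = 0.114).

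The IFITM proteins block fusion of viruses with endosomal membranes. *IFITM3* was at 854 and 790.1 CPM in FLO-1LM and at 748 and 837 CPM in parental cells, and the lines overlapped. Its log2 fold change was 0.05 (SE 0.073, adjusted p = 0.857). *IFITM2* had 84.3 and 69.1 CPM against 92.7 and 97.5 CPM, with a log2 fold change of -0.31 that did not pass (SE 0.095, adjusted p = 0.123), and *IFITM1* was below 2 CPM in every library. The IFITM genes are paralogs whose sequences were not compared here, and how reads were split between them is uncertain.

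Of the IFI genes and *NMI*, none of the 4 that could be tested passed. *IFI6*, a membrane protein that protects cells from apoptosis, was at 185 and 172 CPM in FLO-1LM and at 162 and 176 CPM in parental cells. These values overlapped, with a log2 fold change of 0.08 (SE 0.078, adjusted p = 0.763). *IFI44* had the largest difference of the group, at 23.7 and 25.1 CPM against 30.8 and 33.1 CPM, and its log2 fold change of -0.39 did not pass (SE 0.12, adjusted p = 0.114). *IFI16*, a DNA sensor, had 6 counts in each FLO-1LM library and 1 in each parental library, and *IFI44L* had 0 counts in both FLO-1LM libraries and 1 and 2 in the parental ones. Both were left out of the test by the filter on low counts. A count of 0 allows up to 3 counts in a library, or 0.117 to 0.135 CPM in the FLO-1LM libraries, so no difference was detectable for *IFI44L* at this depth.

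The GBP genes, guanylate-binding GTPases that answer mainly to interferon gamma, were among the less abundant effectors, and none of the 3 passed. *GBP3* was the most abundant, at 8.89 and 8.82 CPM in FLO-1LM and at 10.7 and 9.91 CPM in parental cells, with a log2 fold change of -0.22 (SE 0.18, adjusted p = 0.712). *GBP1* had the lowest fitted log2 fold change of all the effector genes, -1.32, from 22 and 20 counts in FLO-1LM and 52 and 39 in parental cells. With counts this low its SE was 0.47 and the adjusted p was 0.215. *GBP2* had a log2 fold change of -0.88 (SE 0.60, adjusted p = 0.628).

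The PARP and TRIM families, which modify proteins by ADP-ribosylation and ubiquitination, held no gene that passed. *PARP14* was at 232 and 237 CPM in FLO-1LM and at 260.1 and 240.2 CPM in parental cells, with a log2 fold change of -0.09 (SE 0.074, adjusted p = 0.693). The 4 genes of this group were *PARP9*, *PARP12*, *PARP14* and *DTX3L*, the last of which is not a PARP. They lay between -0.25 and -0.06. *TRIM25*, the ligase that activates RIG-I, was at 175 and 199.6 CPM in FLO-1LM and at 198 and 188 CPM in parental cells. The lines overlapped, and the log2 fold change was -0.04 (SE 0.080, adjusted p = 0.898). The 4 tested TRIM genes lay between -0.04 and 0.12. *TRIM22* had 10 and 4 counts in FLO-1LM and 11 and 8 in parental cells and was not tested.

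The 11 remaining effectors, which include *BST2* (tetherin, which holds budding virus at the membrane) and the nuclear body protein *SP100*, did not pass and lay between -0.23 and 0.31. *PLSCR1*, a phospholipid scramblase, was the most abundant of them. It had 70.4 and 63.4 CPM in FLO-1LM and 56.8 and 61.7 CPM in parental cells, with a log2 fold change of 0.18 (SE 0.094, adjusted p = 0.476).

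To compare genes with each other, mean CPM was divided by the length of the canonical transcript in kb. On this scale *IFITM3* led in both lines, at 1345 CPM per kb in FLO-1LM and 1297 in parental cells. *ISG15* was second, at 1136 and 1296 CPM per kb, and *IFI6* came next, at 220.1 and 208. None of these 3 passed the test between lines. Among the lowered genes, *OASL* went from 157 CPM per kb in parental cells to 109.5 in FLO-1LM, which moved it from rank 4 to rank 6 of the 58. *RSAD2* went from 45.1 to 24.97 CPM per kb and from rank 17 to rank 26. *MX1*, which did not pass, stood at rank 19 in parental cells, at 39.5 CPM per kb, and at rank 15 in FLO-1LM, at 48.8. *RSAD2* was thus above *MX1* in parental cells and below it in FLO-1LM.

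**Figure D3:**
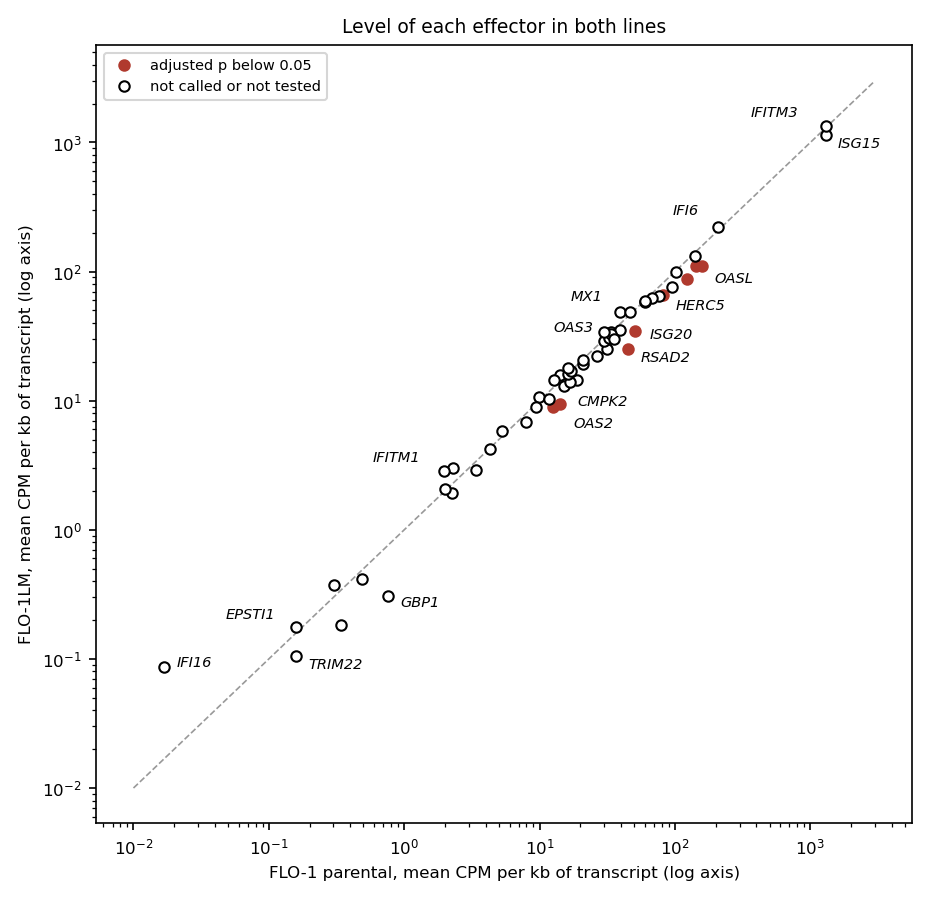
Mean CPM per kb of canonical transcript in FLO-1LM (vertical, log axis) against FLO-1 parental (horizontal, log axis) for the effector genes, each a mean of 2 libraries; the diagonal marks equal levels and *IFI44L*, at 0 in FLO-1LM, is left out. The lowered genes lie below the diagonal, as *RSAD2* at 24.97 against 45.1 CPM per kb, and *IFITM3* and *ISG15* stand apart at the top.

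A ratio of 2 genes within a library does not depend on how libraries are scaled. Each lowered gene was divided by the most abundant gene of its family that did not pass. This pairing was chosen after the values were seen and is given as a description with no test. Dividing a gene called lower by one not called favors a lower ratio in FLO-1LM, and ratios of other gene pairs were not computed. *RSAD2* over *SAMHD1* was 0.999 and 1.06 in the FLO-1LM libraries and 2.07 and 2.03 in the parental libraries. *RSAD2* thus stood level with *SAMHD1* in FLO-1LM and well above it in parental cells. *ISG20* over *SAMHD1* was 0.638 and 0.684 against 1.06 and 1.10. *CMPK2* over *SAMHD1* was 0.400 and 0.297 against 0.595 and 0.579. *OASL* over *OAS3* was 1.67 and 1.51 against 2.32 and 2.29. In all 4 of these ratios both FLO-1LM libraries lay below both parental libraries. *OAS2* over *OAS3* was 0.191 and 0.172 against 0.270 and 0.246. *IFIT2* over *IFIT1* was 0.529 and 0.527 against 0.686 and 0.698, and *IFIT3* over *IFIT1* was 0.464 and 0.476 against 0.565 and 0.563. In these OAS and IFIT ratios, too, the lines did not overlap. *HERC5* over *ISG15* was 0.291 and 0.351 in FLO-1LM and 0.371 and 0.326 in parental cells, the only one of the 8 ratios in which the lines overlapped.

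**Figure D4:**
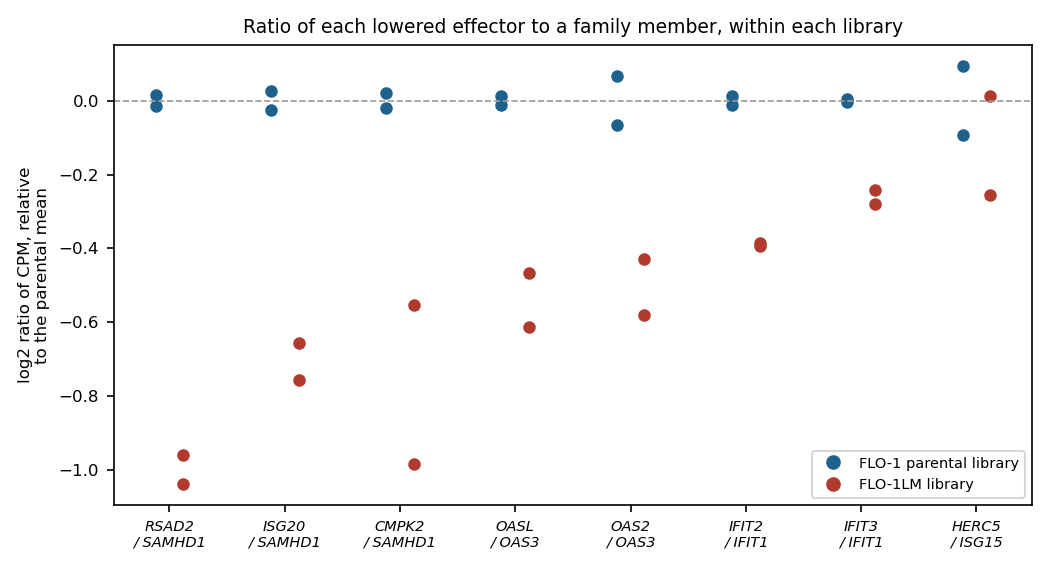
Ratio of each lowered gene to the most abundant gene of its family that did not pass, in each of the 4 libraries (points), as log2 relative to the parental mean (vertical axis). The FLO-1LM points lie below the parental points in 7 of the 8 ratios, with a mean log2 difference of -0.998 for *RSAD2* over *SAMHD1*. They overlap for *HERC5* over *ISG15*. Placing a gene called lower over one not called favors lower ratios in FLO-1LM.

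The genes that start and control the interferon response were a second list, of 36 names. Of these, 29 could be tested, 2 fell and none rose in edgeR (beside 1.83% and 0.402% of all genes tested), and the median log2 fold change was -0.04. At an unadjusted p below 0.05, 4 were lower and 3 higher, beside 7.08% and 5.28% of all genes tested. *TMEM173* encodes STING, the adaptor of cytoplasmic DNA sensing. It was at 38.5 and 35.1 CPM in FLO-1LM and at 55.8 and 53.5 CPM in parental cells, and fell by 0.57 on the log2 scale (SE 0.099, adjusted p = 0.00295). *SOCS1*, a feedback inhibitor of JAK kinases, was at 3.99 and 2.68 CPM in FLO-1LM and at 6.90 and 7.61 CPM in parental cells. It fell by 1.12 (SE 0.26, adjusted p = 0.0249), although DESeq2 gave an adjusted p of 0.0811. Without parental replicate 1 neither gene passed, with adjusted p of 0.0952 for *TMEM173* and 0.158 for *SOCS1*, and *SOCS1* did not pass without parental replicate 2 (adjusted p = 0.265).

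*STAT2* and *IRF9*, which encode subunits of ISGF3, did not pass. *STAT2* had 107 and 123 CPM against 123 and 113 CPM, with a log2 fold change of -0.04 (adjusted p = 0.910). *IRF9* was below 3 CPM in every library, with a log2 fold change of -0.02 (SE 0.34, adjusted p = 0.993). In the annotation *IRF9* shares 1544 exon bases with a readthrough gene on its own strand, so its level is uncertain. *IRF1* and *IRF7*, which drive interferon and effector genes, had log2 fold changes of -0.10 and 0.30 with adjusted p of 0.658 and 0.244.

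Of the interferons, *IFNA1*, *IFNA2*, *IFNE*, *IFNK* and *IFNG* had 0 counts in every library, and *IFNB1* was at most 0.404 CPM. The lambda interferons were detected. *IFNL3* was at 14.4 and 9.21 CPM in FLO-1LM and at 17.2 and 15.2 CPM in parental cells, with a log2 fold change of -0.47 (SE 0.19, adjusted p = 0.301). *IFNL1* was at 9.78 and 6.18 CPM against 10.8 and 10.6 CPM (log2 fold change -0.43, adjusted p = 0.430). *IFNL2*, whose sequence is nearly that of *IFNL3*, was at 9.34 and 8.86 CPM against 11.2 and 11.6 CPM, with a log2 fold change of -0.32 (adjusted p = 0.505). All 3 lay lower in both FLO-1LM libraries than in both parental ones, as did 21.7% of all genes tested, and none passed, although *IFNL1* and *IFNL3* were called lower without FLO-1LM replicate 1. The 6 receptor genes lay between -0.15 and 0.18 and the kinases *JAK1*, *JAK2* and *TYK2* between -0.01 and 0.06, and none passed.

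**Figure D5:**
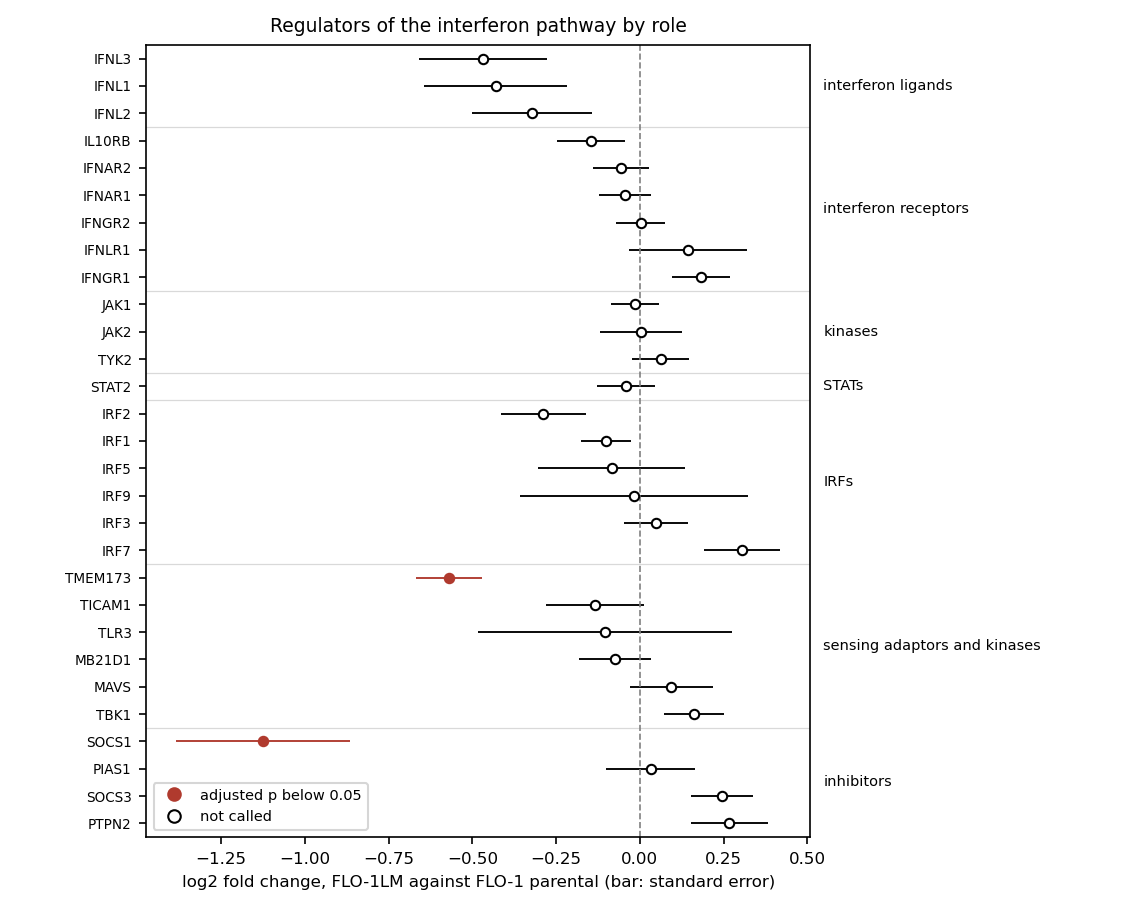
Fitted log2 fold change (FLO-1LM over FLO-1 parental, horizontal axis) with bars of 1 SE for the 29 tested regulator genes, by role. *TMEM173* at -0.57 and *SOCS1* at -1.12 are the 2 that passed.

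Markers of other cell types stayed low in all libraries apart from *COL1A1* and *SERPINA1*, and the part of these markers in the results was not tested. The 8 leukocyte markers summed to 2.24 and 3.42 CPM in FLO-1LM and to 3.18 and 3.23 CPM in parental cells, with *PTPRC*, *CSF1R* and *FCGR3A* at 0 in all 4 libraries. The 6 fibroblast markers summed to 11.1 to 13.1 and 10.01 to 12.8 CPM, with *COL3A1* and *DCN* at 0. Nearly all of that sum was *COL1A1*, at 10.6 to 12.7 CPM in FLO-1LM and 9.70 to 12.5 CPM in parental cells. The 5 liver markers summed to 13.4 to 14.8 and 16.4 to 18.1 CPM, with *ALB*, *TTR* and *CYP3A4* at 0. *SERPINA1* made up nearly all of the liver sum, at 13.2 to 14.8 CPM in FLO-1LM and 16.3 to 18.1 CPM in parental cells. The 3 endothelial markers summed to at most 0.313 CPM. All counts are of human genes, so these markers may not show mouse cells from the hosts in which FLO-1LM was passaged. Of the 5 epithelial markers, *EPCAM* was at most 0.466 CPM in every library of these epithelial tumor lines, and *KRT8*, *KRT18*, *KRT19* and *CDH1* fell in FLO-1LM, with a sum of 482 to 496 against 845 to 858 CPM.

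With 2 libraries a line, no exact permutation test on 1 gene can reach below p = 0.333, so the calls rest on a spread estimated over all genes, and that spread may be technical. The labels give no batch, so a batch and the line cannot be told apart. Of the 8 lowered genes, 4 (*RSAD2*, *OASL*, *IFIT2* and *ISG20*) passed in each of the 4 fits that left out 1 library. The share of all genes called in either direction also moved, from 2.23% with all libraries to 0.651% without parental replicate 1, 0.775% without parental replicate 2, 5.40% without FLO-1LM replicate 2 and 5.85% without FLO-1LM replicate 1. Without parental replicate 1, 4 effector genes were called lower, and *IFIT3*, *OAS2*, *HERC5* and *CMPK2* no longer passed, with adjusted p of 0.334, 0.544, 0.536 and 0.289. The median log2 fold change of the tested effector genes in that fit was -0.05. Without parental replicate 2, 7 were called and *HERC5* did not pass (adjusted p = 0.119), and without FLO-1LM replicate 1, 13 were called lower.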

How the data were processed

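RNA from 4 libraries (FLO-1LM and FLO-1 parental, 2 each) was prepared with a directional kit and sequenced on an Illumina instrument. Per the labels and the study's methods, the authors demultiplexed with bcl2fastq 2.17, trimmed with Trimmomatic 0.30, aligned to GRCh37 and deposited raw counts per gene, which they analysed with limma voom. Not given in the sources used here are the aligner, the program that counted reads and whether it used strand. Samples were grouped by the labels. Genes were tested with edgeR 4.0.16 in R 4.3.3 (quasi-likelihood test, filterByExpr, TMM), with Benjamini-Hochberg adjustment over all 17143 genes tested. Each SE was obtained from the fold change and the F statistic of its test (|log2 fold change| / √F). The fit was tested on simulated data. Alternatives were RLE factors, library totals, DESeq2 1.42.0, limma 3.58.1 voom, other filters, and leaving out each library in turn. Gene symbols and positions came from a GENCODE annotation on GRCh37 later than that of the authors. Symbols now replaced (*DDX58*, *TMEM173*, *MB21D1*) were matched through RefSeq synonyms, and 1 endothelial marker, *PECAM1*, was not matched.

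The effector, regulator and marker lists were chosen with earlier results of these data known. Values in full are given for each effector that passed and, in a family with none, for its member of highest mean CPM. Of the regulators, those that passed and *STAT2*, *IRF9*, *IRF1* and *IRF7* are named, and 1 regulator is not reported here. Other genes were named after their values were seen. A chi-square test of the counts gave 9.16 per degree of freedom between the FLO-1LM libraries and 4.37 between the parental libraries, beside 10.6 to 13.4 between lines, so replicates differed by more than sampling noise. Counts limit precision through counting error, and the common biological coefficient of variation was 0.0899.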

Additional observations from a re-analysis of the deposited data

How the results depend on the processing

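All 8 lowered effector genes were called lower in each of the 6 alternative settings that kept all libraries. These called 8 to 10 effector genes lower, against 8, and the additions were *DHX58* and *IFITM2*. With no filter on low counts 1 was called higher (*MX1*), and DESeq2 called 1 regulator against 2. Leaving out each library in turn gave 4 to 13 effector genes lower, 0 to 2 higher and 0 to 5 regulators, while 0.651% to 5.85% of all genes were called, against 2.23%, with medians of the tested effectors from -0.14 to -0.05; without FLO-1LM replicate 1 *ISG15*, *IFITM2*, *IFIH1*, *DDX60* *DHX58* and the regulators *IRF2*, *IFNL1* and *IFNL3* were also called lower, and without FLO-1LM replicate 2 *DHX58* and *IFI44* were called lower and *IFIT5*, *MX1*, *IRF7* and *PTPN2* higher. In these fits the lone library is assumed to vary like the other line, and why the calls moved was not tested. With library totals *OAS3* was at -0.019, and the median over all genes moved to -0.03. Among the tested effector genes and the 9 regulators examined this way, the sign of 18, none of them called with all libraries, turned when 1 library was left out. The log2 fold changes ranged over -0.067 to 0.056 for *ADAR*, -0.53 to 0.045 for *BST2*, -0.41 to 1.05 for *EPSTI1*, -0.27 to 0.16 for *HERC6*, -0.13 to 0.052 for *IFI35*, -0.027 to 0.14 for *IFITM3*, -0.17 to 0.14 for *IRF9*, -0.13 to 0.094 for *LAP3*, -0.092 to 0.21 for *NMI*, -0.040 to 0.063 for *OAS3*, -0.14 to 0.026 for *PARP9*, -0.19 to 0.055 for *SP100*, -0.062 to 0.35 for *SP110*, -0.15 to 0.055 for *STAT2*, -0.11 to 0.050 for *TRIM21*, -0.14 to 0.049 for *TRIM25*, -0.070 to 0.023 for *TRIM5* and -0.081 to 0.0027 for *UBE2L6*. The depth left *IFI16*, *IFI44L* and *TRIM22* untested. No paired analysis was possible because the labels give no replicate numbers.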
